A study of Mus musculus with 15 samples.

Results

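The 10 genes described here code for proteins of muscle membrane repair: dysferlin (*Dysf*), its relative myoferlin (*Myof*), the repair ligase MG53 (*Trim72*) and 7 annexins (*Anxa1*, *Anxa2*, *Anxa4*, *Anxa5*, *Anxa6*, *Anxa7* and *Anxa11*). They were taken by symbol, through the GRCm38 annotation, from the 30672 genes of a raw count table. All 10 were found on 1 row each and all 10 passed the filter on low counts, as did 15533 genes in all. RNA had been sequenced from the tibialis anterior, a hindlimb muscle, of 15 male 129Pas mice aged 7 weeks. There were 4 untreated wild-type (WT) mice, 4 WT mice given tamoxifen (WT + TAM), 4 untreated *Mtm1*-/y mice and 3 *Mtm1*-/y mice given tamoxifen (*Mtm1*-/y + TAM). *Mtm1* codes for myotubularin, a lipid phosphatase of endosomal membranes, and its loss causes X-linked myotubular myopathy. Tamoxifen is a selective modulator of oestrogen receptors. The sources used here state neither its dose, route nor duration, nor a vehicle for the untreated mice.

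A muscle fibre tears its plasma membrane when it contracts and reseals it within moments. Calcium entering at the tear is sensed by C2 domains of the ferlins and by annexins, soluble proteins that bind acidic phospholipids when calcium rises. Dysferlin brings vesicles to the lesion, MG53 gathers there when the cytosol is oxidised, annexins build a cap over the wound, and the ESCRT machinery sheds the damaged patch. Loss of dysferlin causes limb-girdle muscular dystrophy and Miyoshi myopathy.

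The library totals ran from 18042558 to 45823277 counts, and each of the 10 genes had at least 75 counts in every library. *Mtm1* stood at 15.2 ± 0.294 CPM (counts scaled to library size; SD, n = 4) in WT and 16.3 ± 1.88 (n = 4) in WT + TAM, against 3.35 ± 0.338 (n = 4) in *Mtm1*-/y and 3.48 ± 0.381 (n = 3) in *Mtm1*-/y + TAM, so that every library matched the genotype of its label. These values do not check the tamoxifen labels. The 6 muscle fibre markers together took 161380 to 221289 CPM in WT, 143514 to 180485 CPM in WT + TAM, 122086 to 169069 CPM in *Mtm1*-/y and 136733 to 138860 CPM in *Mtm1*-/y + TAM. A pair of libraries stood apart from the rest of their groups. *Mtm1*-/y replicate 1 lay alone at one end of the second principal component, and its 7 fibroblast markers summed to 367 CPM against 1009 to 1974 CPM in the other *Mtm1*-/y libraries. That low sum did not extend to all 7 markers. *Dcn* was at least 167 CPM in every *Mtm1*-/y library, against 139 to 208 CPM in WT. *Pdgfra* was at least 16.3 CPM in each, against at most 14.2 CPM in WT. The lowest *Mtm1*-/y values of *Col1a1*, *Col1a2*, *Col3a1*, *Lum* and *Dpt* (16.5, 34.5, 28.5, 6.74 and 9.49 CPM) lay below every WT library. In *Mtm1*-/y replicate 1 the muscle fibre sum (122086 CPM) was also the lowest of its group. Its sum for markers of regenerating or immature muscle, 155 CPM, was the highest of that group. WT + TAM replicate 1 lay alone at one end of the third component, with fibroblast markers at 4720 CPM where its 3 companions had 898 to 1836 CPM. Its adipocyte markers (37.2 CPM against 0.229 to 3.46 CPM) and Schwann markers (116 CPM against 40.3 to 74.2 CPM) were high as well. Its endothelial markers were low, at 295 CPM against 480 to 535 CPM. That library also held 439 CPM of *Myh7*, the slow myosin heavy chain, while its companions held 1.45 to 3.70 CPM. To a lesser degree *Myh7* was also raised in *Mtm1*-/y + TAM replicates 2 and 3, at 26.0 and 37.7 CPM, against 4.61 CPM in replicate 1. *Myh7* was looked at after the values were seen. The part of these differences in the results below was not tested, and each member whose call changes without either library is given with and without it. In whole muscle, fewer cells of a type and less RNA per cell cannot be told apart.

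The proximal promoters of 3 annexins are shown because these genes span the range of responses described below: *Anxa4* had the largest difference between genotypes among the 10 genes, *Anxa2* a large one with a wide spread, and *Anxa5* none that could be detected. The sequences are those of RefSeq on GRCm38.p6, written 5′ to 3′ on the strand of the gene and ending at the last base before the annotated gene start. Capitals mark an AP-1 element (TGANTCA), an E-box (CANNTG) or a GC box (GGGCGG), each searched on both strands. *Anxa4* has a second RefSeq start, at 86775114, whose window is not printed and holds an E-box at position -161. A GC box of *Anxa4* lies at position 7 from the first start, beyond the stretch shown.
Anxa2, chr9:69453433-69453619, plus strand: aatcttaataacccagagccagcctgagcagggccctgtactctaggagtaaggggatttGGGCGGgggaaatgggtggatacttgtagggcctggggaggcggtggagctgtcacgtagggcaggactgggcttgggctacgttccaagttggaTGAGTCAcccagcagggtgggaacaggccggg
Anxa4, chr6:86793585-86793834, minus strand: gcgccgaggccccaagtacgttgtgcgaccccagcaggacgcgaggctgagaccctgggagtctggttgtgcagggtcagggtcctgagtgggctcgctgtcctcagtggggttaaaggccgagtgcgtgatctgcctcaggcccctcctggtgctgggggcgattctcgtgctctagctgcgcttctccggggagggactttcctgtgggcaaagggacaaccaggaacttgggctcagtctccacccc
Anxa5, chr3:36475895-36476137, minus strand: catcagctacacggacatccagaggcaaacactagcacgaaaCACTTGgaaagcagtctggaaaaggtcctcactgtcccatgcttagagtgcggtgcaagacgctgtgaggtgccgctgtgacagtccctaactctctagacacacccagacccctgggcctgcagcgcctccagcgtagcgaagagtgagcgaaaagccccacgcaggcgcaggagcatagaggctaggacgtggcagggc
Over the full RefSeq windows, from 250 bases before to 50 after a start, 12 windows matched 9 of the 10 genes; *Anxa6* had no entry. The AP-1 element was found in 1 of the 12 windows, that of *Anxa2*, and in 7.81% of 32851 windows of all genes. *Anxa2* and *Anxa1* were the genes with a TATA box (TATAAA, either strand), which 13.6% of all windows hold. E-boxes were found in 8 of the 12 windows, those of 7 of the 9 genes, but 72.3% of all windows hold one. The window of *Trim72* held 3. GC boxes were found in 7 of the 12 windows, those of 5 of the 9 genes, and in 35.7% of all windows. An oestrogen response element (GGTCA, any 3 bases, then TGACC) was in none of the 12 windows and in 0.07% of all. These are matches of letters, not binding sites.

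Scaled to library size and to the length of merged exons (FPKM), the members differed widely in untreated WT muscle. *Trim72* led with 88.2 ± 4.69 FPKM (SD, n = 4), followed by *Anxa6* at 77.6 ± 2.09, *Dysf* at 26.8 ± 2.87 and *Anxa5* at 19.9 ± 3.15. *Anxa11* (13.7 ± 1.89), *Anxa2* (10.5 ± 1.59), *Anxa7* (5.85 ± 0.35), *Anxa1* (4.51 ± 0.705) and *Anxa4* (3.18 ± 0.363) came next. *Myof*, at 0.397 ± 0.0382 FPKM, was the least abundant. *Trim72* lay above 97.9% and *Anxa6* above 97.7% of all tested genes in FPKM, while *Myof* lay above 22.0%. *Mtm1*-/y muscle kept *Trim72* (111 ± 21.9 FPKM, n = 4), *Anxa6* (98.6 ± 22.1) and *Dysf* (44.4 ± 10.1) as the most abundant, but *Anxa2* (27.6 ± 12.9) and *Anxa11* (23.8 ± 3.87) now stood beside *Anxa5* (19.6 ± 6.29), and the SDs of these 3 overlapped. *Anxa7* (16.6 ± 3.96) and *Anxa4* (14.1 ± 1.61) also had overlapping SDs.

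**Figure D1:**
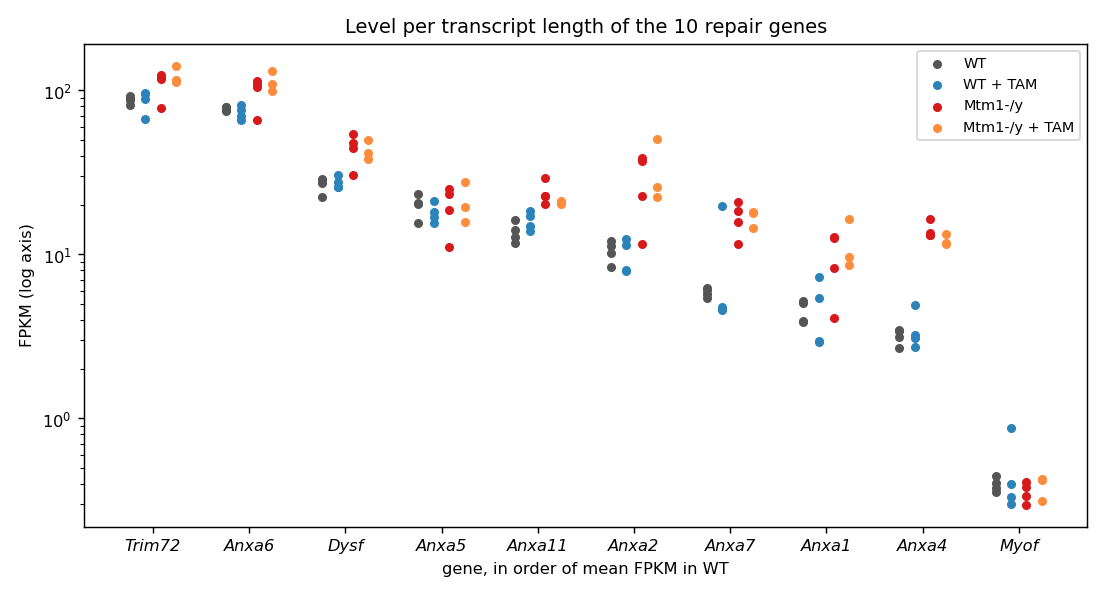
FPKM of each of the 10 repair genes (log axis), with 1 point per library coloured by group and genes ordered by their mean in WT. *Trim72* and *Anxa6* are the most abundant in every group and *Myof* the least, while *Anxa4* moves from 3.18 FPKM in WT to 14.1 FPKM in *Mtm1*-/y.

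The first question was how the repair genes differ between *Mtm1*-/y and WT muscle without treatment. Of the 10 genes, 6 were higher in *Mtm1*-/y and none was lower. They were *Anxa4*, *Anxa7*, *Anxa2*, *Anxa1*, *Anxa11* and *Dysf*, with folds from 1.66 to 4.44. *Trim72*, *Anxa6*, *Anxa5* and *Myof* did not pass the test. The median log2 fold change over the 10 genes was 0.76, against 0.00047 over all tested genes. The members were chosen with earlier results of these data known, so setting them beside all genes is a description and not a test. All but *Myof* also lay above at least 60.8% of tested genes in WT FPKM. In this comparison 30.4% of the 15533 tested genes were called (edgeR quasi-likelihood test, Benjamini-Hochberg adjusted p under 0.05) and 15.5% were called higher. Markers of regenerating or immature muscle moved with genotype too, *Myog*, *Myh3*, *Myod1* and *Myh8* being higher and the satellite cell gene *Pax7* lower, and the sum of these 5 ran from 36.4 to 51.1 CPM in WT and from 88.9 to 155 CPM in *Mtm1*-/y. Of the 6 muscle fibre markers, whose sums are given above, 2 were called lower in *Mtm1*-/y, *Tnnt3* (log2 fold change -0.51, adjusted p = 0.0030) and *Acta1* (-0.43, adjusted p = 0.035), and the other 4 did not pass. The part of either marker list in the result was not tested. The 4 genes whose groups did not overlap at all (*Anxa4*, *Anxa7*, *Anxa11* and *Dysf*) compare with 30.5% of all tested genes.

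**Figure D2:**
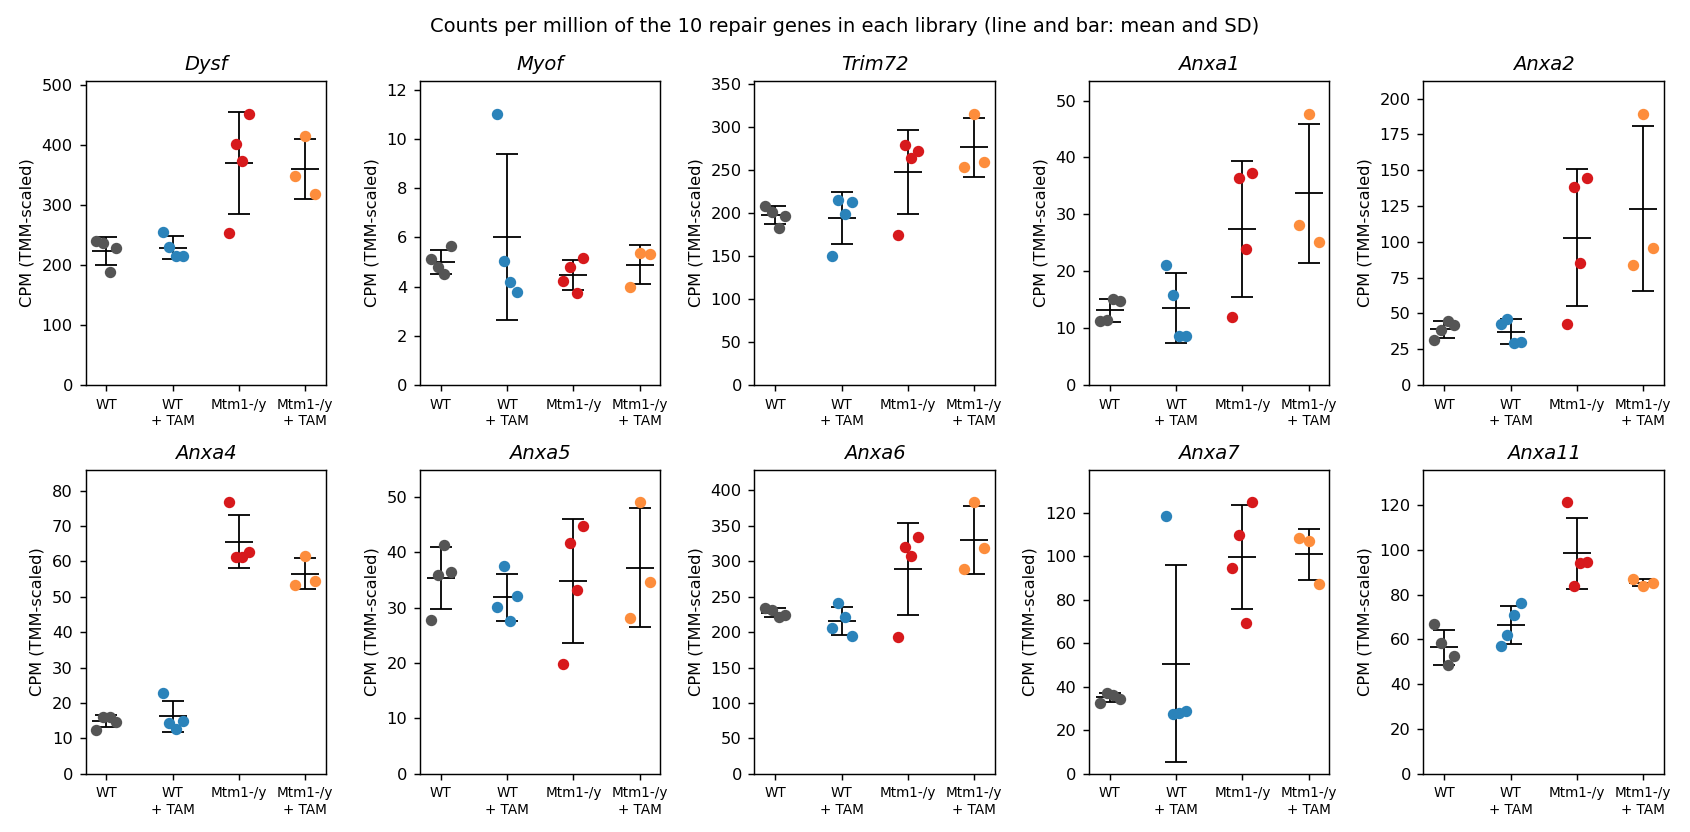
TMM-scaled CPM of each repair gene in each of the 15 libraries, with the mean and SD of each group (n = 4, 4, 4 and 3) and an axis from 0 in each panel. The groups of *Anxa4* are fully separated by genotype, *Mtm1*-/y replicate 1 is the lowest *Mtm1*-/y library for *Dysf*, *Trim72*, *Anxa1*, *Anxa2*, *Anxa5* and *Anxa6*, and WT + TAM replicate 1 is high for *Anxa7* and *Myof*.

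Dysferlin is the calcium sensor that brings vesicles to a tear. *Dysf* (ENSMUSG00000033788, GRCm38 chromosome 6, 84008590 to 84211060, plus strand) measured 240, 236, 188 and 229 CPM in WT and 253, 401, 373 and 452 CPM in *Mtm1*-/y, in replicate order. The groups did not overlap, but *Mtm1*-/y replicate 1 lay close to the highest WT library. *Dysf* was 1.66-fold higher in *Mtm1*-/y (log2 fold change 0.73, SE 0.15, adjusted p = 0.0024), and 0.87 on the log2 scale without *Mtm1*-/y replicate 1. Under tamoxifen the libraries stood at 255, 230, 214 and 214 CPM in WT + TAM and at 347, 414 and 318 CPM in *Mtm1*-/y + TAM. All *Mtm1*-/y + TAM libraries were above all WT + TAM libraries, and the difference was 1.57-fold (log2 fold change 0.65, SE 0.16, adjusted p = 0.011). Without *Mtm1*-/y + TAM replicate 2, the highest, it was 0.54 with an adjusted p of 0.068. The order of group means was *Mtm1*-/y, *Mtm1*-/y + TAM, WT + TAM, WT, and only the step between genotypes exceeded the spread. A pair of antisense genes shares 4.2% and 1.3% of the exon bases of *Dysf*, and the sources used here do not say whether reads were counted by strand.

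Myoferlin, which serves vesicle fusion in myoblasts, was scarce in this adult muscle. *Myof* (ENSMUSG00000048612, chromosome 19, 37899036 to 38043577, minus strand) measured 5.11, 4.78, 4.51 and 5.63 CPM in WT and 4.23, 4.80, 3.75 and 5.15 CPM in *Mtm1*-/y. The groups overlapped, with a log2 fold change of -0.16 (95% interval -0.73 to 0.41, adjusted p = 0.69). WT + TAM held 1 library at 11.03 CPM, replicate 1, and 3 libraries between 3.77 and 5.04 CPM. *Mtm1*-/y + TAM had 3.97, 5.37 and 5.33 CPM, within the range of the other groups. *Myof* had 75 to 270 reads a library, and the 95% interval of the untreated comparison does not exclude a change of either sign.

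MG53 is a muscle-specific TRIM-family ligase that nucleates the repair patch. *Trim72* (ENSMUSG00000042828, chromosome 7, 128003949 to 128011033, plus strand) measured 207, 201, 183 and 196 CPM in WT and 174, 279, 264 and 271 CPM in *Mtm1*-/y. *Mtm1*-/y replicate 1 fell below every WT library, while the other *Mtm1*-/y libraries lay above all of them. The log2 fold change was 0.33 (SE 0.15, 95% interval 0.02 to 0.64, adjusted p = 0.10), and without *Mtm1*-/y replicate 1 it was 0.46 with an adjusted p of 0.0089. Under tamoxifen *Trim72* measured 150, 215, 198 and 212 CPM in WT + TAM and 253, 315 and 259 CPM in *Mtm1*-/y + TAM. These groups did not overlap, and the log2 fold change of 0.51 (SE 0.16) passed the test with an adjusted p of 0.033. The lowest WT + TAM library was replicate 1; without it the log2 fold change was 0.40 with an adjusted p of 0.067, and the call was lost in 5 of 24 alternative fits. The antisense gene *Gm15533* covers 27.6% of the exon bases of *Trim72*, and had between 0 and 4 counts in any library.

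Annexin A4, which binds membranes and has been described at repair sites, was the member most clearly separated by genotype. *Anxa4* (ENSMUSG00000029994, chromosome 6, 86736840 to 86793584, minus strand) measured 12.5, 15.96, 16.1 and 14.6 CPM in WT and 76.7, 61.4, 61.4 and 62.5 CPM in *Mtm1*-/y. The lowest *Mtm1*-/y library was several times the highest WT library, and replicate 1 was here the highest *Mtm1*-/y library. *Anxa4* was 4.44-fold higher (95% interval 3.52 to 5.60, log2 fold change 2.15, SE 0.16, adjusted p = 7.01e-07), a change larger in size than that of 97.1% of tested genes. With tamoxifen the levels were 22.8, 14.5, 12.6 and 14.9 CPM in WT + TAM and 53.5, 61.7 and 54.6 CPM in *Mtm1*-/y + TAM. The groups again did not overlap and the log2 fold change was 1.81 (adjusted p = 9.09e-06, SE 0.16). Leaving out WT + TAM replicate 1, the highest of its group, gave 2.02.

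Annexin A2 pairs with S100A10, bridges membranes and binds actin, and annexin A1 is known for membrane aggregation and for its role in inflammation. *Anxa2* (ENSMUSG00000032231, chromosome 9, 69453620 to 69491795, plus strand) measured 31.1, 38.3, 44.99 and 41.7 CPM in WT and 43.0, 138, 85.3 and 145 CPM in *Mtm1*-/y. *Mtm1*-/y replicate 1 lay inside the WT range and the other *Mtm1*-/y libraries far above it. The log2 fold change was 1.40 (adjusted p = 0.0097, SE 0.35), and 1.66 without that library. *Anxa2* in *Mtm1*-/y + TAM stood at 84.1, 190 and 95.9 CPM, against 42.8, 46.4, 29.5 and 30.1 CPM in WT + TAM. The groups did not overlap, and the log2 fold change was 1.73 (adjusted p = 0.0066, SE 0.37).

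*Anxa1* (ENSMUSG00000024659, chromosome 19, 20373428 to 20390944, minus strand) followed the same libraries at a lower level. It measured 11.2, 11.5, 15.1 and 14.7 CPM in WT and 11.9, 36.4, 23.95 and 37.2 CPM in *Mtm1*-/y, where replicate 1 was again inside the WT range. Its log2 fold change of 1.06 (SE 0.37) had an adjusted p of 0.045, and it lost the call in 13 of 24 alternative fits, with adjusted p up to 0.12. Without *Mtm1*-/y replicate 1 it was 1.31, with an adjusted p of 0.010. Under tamoxifen the values were 21.2, 15.8, 8.68 and 8.58 CPM in WT + TAM and 28.1, 47.7 and 25.2 CPM in *Mtm1*-/y + TAM, without overlap. That difference, 1.32 on the log2 scale (SE 0.39, adjusted p = 0.032), lost the call in 7 of 24 alternative fits. Without *Mtm1*-/y + TAM replicate 2 it was 0.98, with an adjusted p of 0.16. The 8 macrophage markers summed to 34.1, 61.7, 26.2 and 56.7 CPM in the *Mtm1*-/y libraries in replicate order and to 23.3 to 39.6 CPM in WT. *Mtm1*-/y replicates 2 and 4 were high in both *Anxa1* and the markers. Replicate 3 was above every WT library in *Anxa1*, while its marker sum lay inside the WT range. Replicate 1 was inside the WT range in both. Of these markers, 2 of 8 (*Cd68* and *Cd14*) were called higher in *Mtm1*-/y and 0 lower, and the median log2 fold change of the list was 0.22. *Cd68* spread from 1.40 to 14.4 CPM over the *Mtm1*-/y libraries and from 0.861 to 2.79 CPM in WT. The means of *Mrc1* (9.44 CPM in WT and 6.79 in *Mtm1*-/y) and *Itgam* (0.522 and 0.430) went the other way. The part of the macrophage markers in the *Anxa1* and *Anxa2* differences was not tested.

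Annexin A7, or synexin, promotes vesicle aggregation, and annexin A11 binds the calcium-binding protein ALG-2 and tethers RNA granules to membranes. *Anxa7* (ENSMUSG00000021814, chromosome 14, 20455260 to 20480133, minus strand) measured 32.5, 37.3, 36.1 and 34.3 CPM in WT and 94.7, 110, 69.1 and 125 CPM in *Mtm1*-/y. The groups were well apart, and the log2 fold change was 1.51 (adjusted p = 0.016, SE 0.42). In the tamoxifen groups, WT + TAM replicate 1 held 118 CPM while the other WT + TAM libraries held 27.6, 27.8 and 28.7 CPM. That single library lay above all of *Mtm1*-/y + TAM, which stood at 108, 107 and 87.4 CPM. The log2 fold change was 0.99 (adjusted p = 0.13, SE 0.44) with it and 1.85 (adjusted p = 9.74e-06) without it. With all libraries limma-voom called it, at 1.32 with an adjusted p of 0.027. All 15 libraries share one estimate of the spread, and without WT + TAM replicate 1 the untreated log2 fold change was 1.51 with an adjusted p of 4.95e-06.

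*Anxa11* (ENSMUSG00000021866, chromosome 14, 25842156 to 25886804, plus strand) measured 66.8, 58.3, 48.7 and 52.6 CPM in WT and 121, 83.9, 94.2 and 94.5 CPM in *Mtm1*-/y. All *Mtm1*-/y libraries were above all WT libraries, with replicate 1 the highest, and the log2 fold change was 0.80 (adjusted p = 0.00034, SE 0.13). Under tamoxifen the gap was narrower, at 57.2, 62.0, 70.9 and 76.2 CPM in WT + TAM and 87.0, 83.9 and 85.1 CPM in *Mtm1*-/y + TAM. These groups did not overlap, but the difference of 0.36 on the log2 scale (SE 0.13, 95% interval 0.07 to 0.64) missed the threshold, with an adjusted p of 0.072. It was called in 2 of 24 alternative fits at nearly the same size, without *Mtm1*-/y replicate 1 (0.36, adjusted p = 0.029) and with only the groups compared in the fit (0.37, adjusted p = 0.042). Whether the genotype difference itself changed with tamoxifen was tested by the interaction, which was -0.44 for *Anxa11* (SE 0.18, unadjusted p = 0.030, adjusted p = 0.43) and so was not called.

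Annexin A6, the largest annexin and a main component of the repair cap in muscle, and annexin A5, which forms ordered arrays on torn membranes, did not pass the test without treatment. *Anxa6* (ENSMUSG00000018340, chromosome 11, 54979108 to 55033445, minus strand) measured 234, 231, 221 and 224 CPM in WT and 193, 321, 307 and 334 CPM in *Mtm1*-/y. Just as for *Trim72*, *Mtm1*-/y replicate 1 was below every WT library and the other *Mtm1*-/y libraries above them all. The log2 fold change was 0.34 (adjusted p = 0.086, SE 0.15), and 0.50 with an adjusted p of 0.0023 without that library. In *Mtm1*-/y + TAM *Anxa6* stood at 290, 383 and 319 CPM, and in WT + TAM at 206, 240, 222 and 194 CPM. The groups did not overlap, and the log2 fold change of 0.62 (SE 0.16) passed with an adjusted p of 0.012.

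*Anxa5* (ENSMUSG00000027712, chromosome 3, 36448923 to 36475894, minus strand) measured 27.8, 35.9, 41.3 and 36.4 CPM in WT and 19.7, 41.6, 33.3 and 44.7 CPM in *Mtm1*-/y. The *Mtm1*-/y libraries lay on both sides of the WT range. The log2 fold change was -0.02, with a 95% interval of -0.50 to 0.46 and an adjusted p of 0.96. With tamoxifen *Anxa5* ran from 27.6 to 37.5 CPM in WT + TAM and stood at 28.1, 49.0 and 34.6 CPM in *Mtm1*-/y + TAM, which overlapped (log2 fold change 0.23, 95% interval -0.29 to 0.75, adjusted p = 0.55).

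Taking the tamoxifen-treated groups as a whole, the repair genes differed between *Mtm1*-/y + TAM and WT + TAM for 6 of 10 members, all higher: *Anxa4*, *Anxa2*, *Anxa1*, *Dysf*, *Anxa6* and *Trim72*. *Anxa7* (0.99), *Anxa11* (0.36), *Anxa5* (0.23) and *Myof* (-0.28) did not pass. The background was 20.1% of tested genes called and 10.6% called higher. The groups did not overlap for 7 of the 10 members and for 31.6% of all tested genes. The median log2 fold change of the 10 members was 0.64, against -0.017 over all genes, again a description of members chosen with earlier results known. Leaving out *Mtm1*-/y + TAM replicate 2, the highest library for *Dysf*, *Trim72*, *Anxa1*, *Anxa2*, *Anxa4*, *Anxa5* and *Anxa6*, left 2 members called, *Anxa4* and *Anxa2*. Marker sums moved with this comparison as well. The 8 macrophage markers summed to 53.6, 84.2 and 61.4 CPM in *Mtm1*-/y + TAM in replicate order and to 33.1 to 46.1 CPM in WT + TAM, without overlap and highest in replicate 2. Their median log2 fold change was 0.72, with none of the 8 past the adjusted threshold in the edgeR test and 4, all higher, at an unadjusted p under 0.05. The 5 markers of regenerating or immature muscle summed to 125 to 181 CPM in *Mtm1*-/y + TAM, again highest in replicate 2, and to 39.2 to 61.5 CPM in WT + TAM, with 3 called higher and 1 lower. Their part in the differences of the members was not tested.

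**Figure D3:**
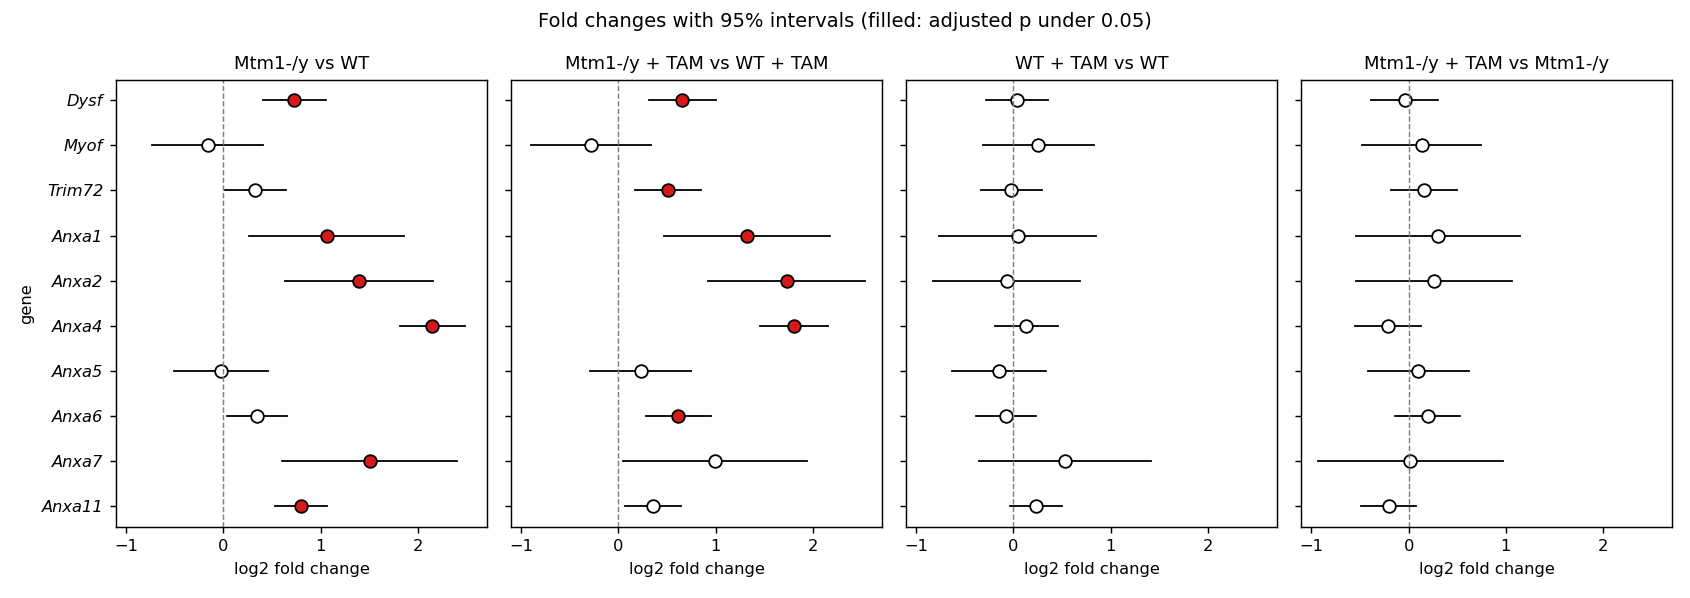
Log2 fold change of each repair gene with its 95% interval in the 4 comparisons between pairs of groups, filled where the adjusted p was under 0.05. In both genotype comparisons 6 of the 10 points are filled and lie to the right of 0, and no point is filled in either tamoxifen comparison.

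The next question was whether tamoxifen changed the repair genes. None of the 10 was called in *Mtm1*-/y + TAM against *Mtm1*-/y, where the log2 fold changes ran from -0.21 (*Anxa4*, adjusted p = 0.88) to 0.30 (*Anxa1*, adjusted p = 0.91). No member had an unadjusted p under 0.05 in the edgeR test, and DESeq2 and limma-voom called 0 of 10 as well. In this comparison edgeR called 2 genes of the whole table, or 0.0129%. For all 10 members the groups overlapped, and 5.7% of tested genes had groups that did not. The 95% intervals were narrowest for *Anxa11* (-0.49 to 0.08), *Anxa6* (-0.14 to 0.53), *Trim72* (-0.18 to 0.49), *Anxa4* (-0.56 to 0.13) and *Dysf* (-0.39 to 0.31). They were wide for *Anxa7* (-0.93 to 0.97), *Anxa1* (-0.54 to 1.14) and *Anxa2* (-0.54 to 1.06).

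In WT muscle tamoxifen gave log2 fold changes from -0.15 (*Anxa5*) to 0.53 (*Anxa7*), and again 0 of 10 members passed, with 0 at an unadjusted p under 0.05 and 0 by DESeq2 or limma-voom. The background was 0.309% of genes called. All 10 members had overlapping groups, against 8.08% of tested genes without overlap. The *Anxa7* value rests on WT + TAM replicate 1: without it the log2 fold change was -0.32 with an adjusted p of 0.46. The *Myof* value also turned, from 0.26 to -0.22. *Anxa11* had the smallest adjusted p, 0.51, at a log2 fold change of 0.23. Averaged over both genotypes, the tamoxifen effect lay between -0.039 (*Anxa4*) and 0.27 (*Anxa7*), and edgeR, DESeq2 and limma-voom each called 0 of 10 members, with 0 at an unadjusted p under 0.05 and 0.206% of all genes called by edgeR. The interaction of genotype and tamoxifen was called for 0% of genes by edgeR and for 74 genes by DESeq2, and 1650 genes had an unadjusted p under 0.05. Among the members it was called for 0 of 10 by edgeR, DESeq2 and limma-voom, with *Anxa11* alone under an unadjusted p of 0.05. These comparisons share their untreated or treated libraries with the genotype comparisons and are not independent of them.

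The other genes of the repair machinery were described from lists of calpains, partners of dysferlin and annexins, ESCRT proteins, vesicle fusion proteins and further ferlins and annexins. Of 42 listed genes 39 were in the table and 37 were tested. These lists, too, were chosen with earlier results of these data known, so the shares of all genes given beside them are no test. Between *Mtm1*-/y and WT, 18 were higher, 6 were lower and 13 did not pass, with a median log2 fold change of 0.31. Over all tested genes of this comparison 30.4% were called and 15.5% called higher. Between *Mtm1*-/y + TAM and WT + TAM, 18 were higher, 2 lower and 17 did not pass, where 20.1% of all tested genes were called and 10.6% called higher. For tamoxifen, edgeR, DESeq2 and limma-voom each called 0 of the 37 in either genotype, with 1 gene at an unadjusted p under 0.05 in *Mtm1*-/y and 3 in WT.

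The calpains, calcium-activated proteases that trim repair proteins at a lesion, were called in all 4 cases and not in one direction. *Capn2* (0.76, SE 0.10, adjusted p = 8.31e-05), the small regulatory subunit *Capns1* (0.72, SE 0.12, adjusted p = 0.00054) and *Capn1* (0.46) were higher in *Mtm1*-/y. *Capn3*, the muscle calpain that is mutated in another limb-girdle dystrophy, was lower by log2 fold change (-0.87, SE 0.14, adjusted p = 0.00040). The WT libraries averaged 264 ± 31.2 CPM and those of *Mtm1*-/y 144 ± 31.4 CPM (SD, n = 4 each), and the libraries did not overlap. Under tamoxifen its log2 fold change was -0.46 (adjusted p = 0.043).

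Among 13 partner genes, 6 were higher and 3 lower in *Mtm1*-/y. The largest differences were those of *S100a4*, a calcium-binding protein that binds non-muscle myosin (log2 fold change 5.09, SE 0.49, adjusted p = 1.61e-05), and *Ahnak2* (4.08, SE 0.36, adjusted p = 8.02e-06), a giant scaffold protein. In WT *S100a4* averaged 1.18 ± 0.140 CPM, and in *Mtm1*-/y 40.8 ± 23.9 CPM, while *Ahnak2* went from 3.75 ± 0.776 to 63.2 ± 24.7 CPM (SD, n = 4 each). *S100a6* (1.09), the dysferlin-binding scaffold *Ahnak* (0.96), the annexin A2 partner *S100a10* (0.87) and the caveolin *Cav3* (0.54) were higher too. *S100a11* was at -0.46, with an adjusted p of 0.22. *Parvb* (0.31), *Ehd1* (0.16) and the caveolar gene *Cavin1* (0.033, adjusted p = 0.88) did not pass either. *Ehd2*, a caveolar ATPase (-0.88, SE 0.17, adjusted p = 0.0012), *Myh9*, non-muscle myosin (-0.62), and *Parva* (-0.37), whose relative *Parvb* binds dysferlin, were lower. *Pecam1* and the 5 other endothelial markers were also all lower in *Mtm1*-/y, their sum running from 446 to 584 CPM in WT and from 236 to 319 CPM in *Mtm1*-/y. Caveolae and *Ehd2* are abundant in endothelium, and the part of these cells in the *Ehd2* and *Myh9* differences was not tested.

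Of the 9 ESCRT genes, which pinch off the damaged membrane, 6 were higher and none lower. *Pdcd6*, which codes for the calcium sensor ALG-2, had a log2 fold change of 0.57 (adjusted p = 0.00060, SE 0.10), its partner *Pdcd6ip* 0.54 (SE 0.09) and *Chmp4b* 0.47 (SE 0.08). Their summed level was 406 to 440 CPM in WT and 516 to 541 CPM in *Mtm1*-/y, without overlap. *Vps4a*, *Vps4b* and *Chmp2b* did not pass. Among 6 vesicle fusion genes *Vamp2* (0.51) and *Stx4a* (0.39) were higher, *Vamp3* (-0.31) was lower, and *Syt7*, *Snap23* and *Smpd1* did not pass. Of the remaining annexins *Anxa3* was lower (-0.62, SE 0.21, adjusted p = 0.033). *Anxa13* passed as higher on 1 to 10 counts a library in *Mtm1*-/y and 0 to 1 in WT, too few for a fold to be given, and *Anxa8* and *Anxa9* did not pass. *Fer1l6*, the only further ferlin tested, had a log2 fold change of -0.91 with an adjusted p of 0.068.

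**Figure D4:**
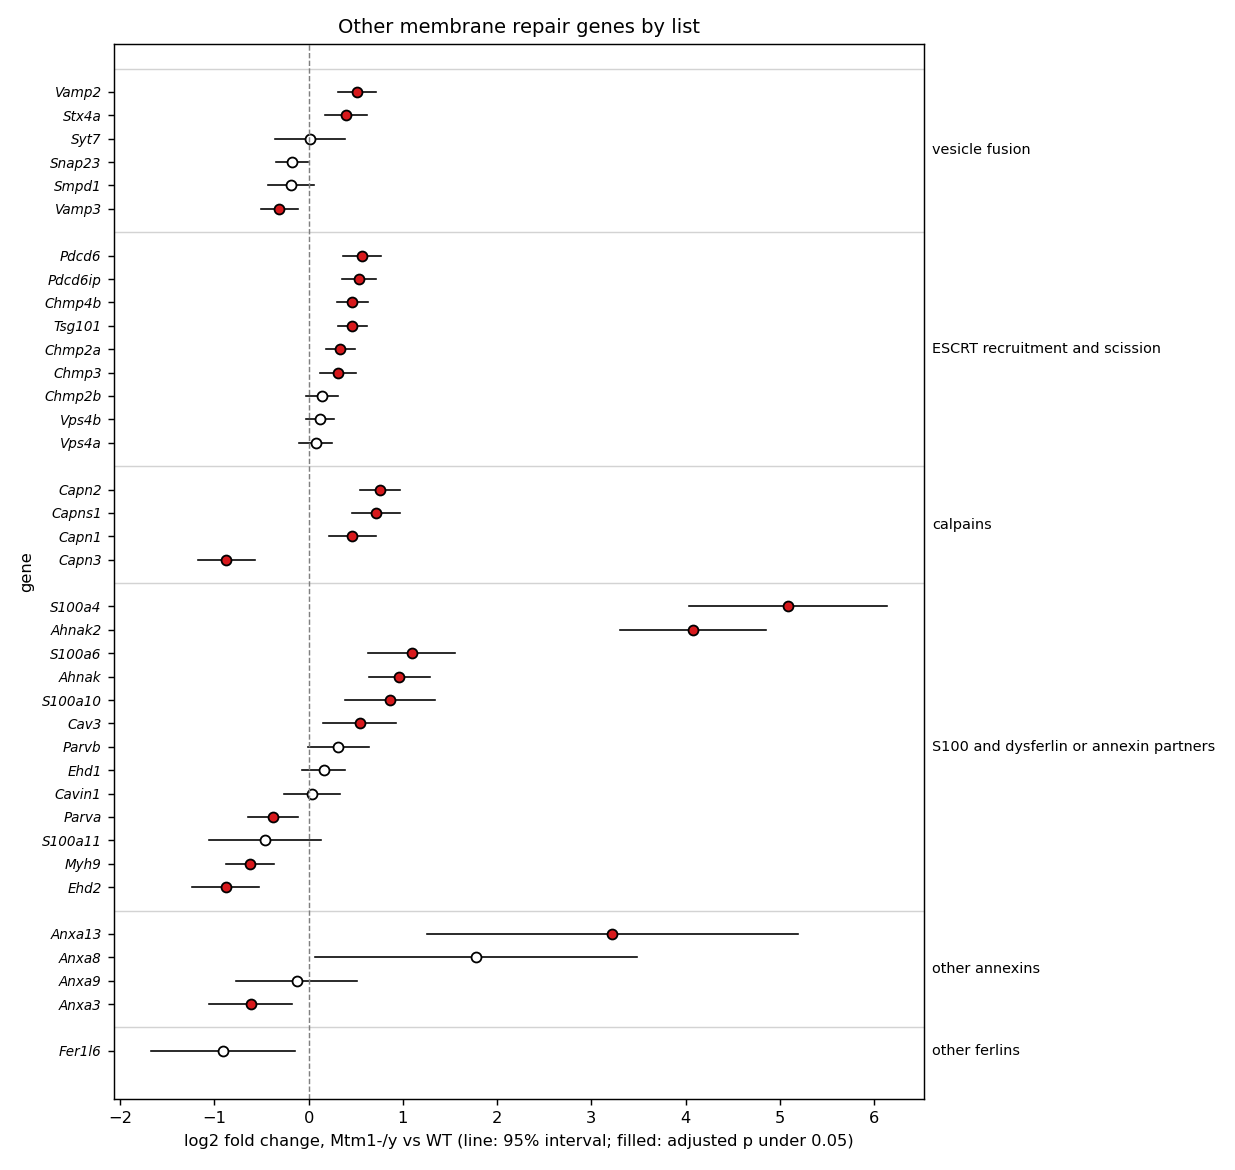
Log2 fold change between *Mtm1*-/y and WT with its 95% interval for the 37 tested genes of the repair lists, filled where the adjusted p was under 0.05. *S100a4* and *Ahnak2* lie farthest to the right at 5.09 and 4.08, 6 of 9 ESCRT genes are filled to the right of 0, and *Capn3* and *Ehd2* are filled to the left.

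How the members varied among themselves was described by Pearson correlations of log2 CPM over the 15 libraries, with the group means removed so that the genotype difference does not enter. The points share library preparation and scaling, and no test was made. Of 45 pairs, 19 had a within-group r over 0.5 and 5 an r under -0.5. *Anxa2* and *Anxa5* (r = 0.95), *Anxa1* and *Anxa2* (0.92) and *Anxa2* and *Anxa6* (0.86) varied together, although *Anxa5* did not pass the test between genotypes. Dysferlin went with *Anxa6* (0.83) and *Trim72* with *Anxa6* (0.83). *Anxa11* ran the other way, at -0.83 with *Anxa1* and -0.75 with *Anxa2*. Without *Mtm1*-/y replicate 1 and WT + TAM replicate 1 (13 libraries, group means taken again) the first pairs stood at 0.94, 0.94 and 0.76, and *Anxa11* at -0.62 with *Anxa1* and -0.56 with *Anxa2*. The r of *Anxa7* and *Myof*, 0.88, fell to 0.32, and that of *Trim72* and *Anxa4* went from -0.65 to 0.23, so that these pairs rested on the libraries left out. *Anxa11* also changed sign, from -0.43 to 0.31 with *Dysf* and from -0.17 to 0.17 with *Trim72*.

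**Figure D5:**
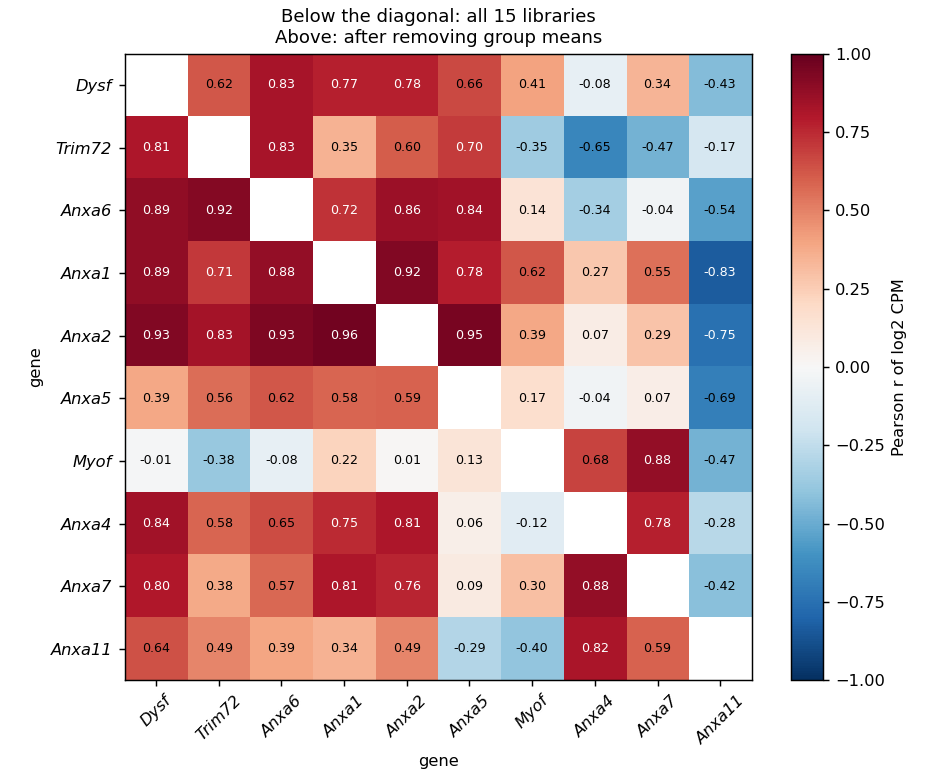
Pearson r of log2 CPM between the repair genes, over all 15 libraries below the diagonal and after removing group means above it. *Anxa1*, *Anxa2*, *Anxa5* and *Anxa6* form a block of high r above the diagonal, and *Anxa11* is negative with every other member there. Over the 13 libraries of the text *Anxa11* is positive with *Dysf* and *Trim72*.

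The genes most like 3 of the members over all 15 libraries were also listed. *Itgb1* (r = 0.97), *Tmem43*, *Klf5*, *Nab2* and *Usp4* (the last at 0.95) came closest to *Dysf*, and their r within groups was 0.83 to 0.89, or 0.59 to 0.69 over the 13 libraries. *Prss23* was closest to *Trim72*, with an r of 0.97 over all libraries, 0.97 within groups and 0.79 over the 13 libraries, followed by *Ttll1*, *Cavin4*, *Uqcc2* and *Uqcc3*, whose r fell to between 0.34 and 0.55 over the 13. *Nab2* (0.97) and *S100a10* (0.97) were closest to *Anxa2*, followed by *Tssc4*, *Cmas* and *Slc44a1*. For *Anxa2* the likeness held best without the 2 libraries, at 0.91 for *Nab2* and 0.88 for *S100a10*. Since the genotype difference enters the r over all libraries, genes called between genotypes are favoured by it.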

How the data were processed

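RNA of the tibialis anterior was extracted with TRI Reagent and made into stranded mRNA libraries, per the labels. The deposited values are raw counts per gene for 15 mice. According to the submitters' processing notes the tools were STAR 2.5.3a, Bowtie2 2.2.8, cutadapt 1.10 and HTSeq 0.6.1p1, and GRCm38 and mm10 are listed as builds, without their roles. The sources used here state neither the annotation release nor the strand setting.

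Here, all 30672 gene IDs were matched to GENCODE release M21 (GRCm38). The 15533 genes kept by edgeR's filter (minimum count 10) were fitted with edgeR 4.0.16 (TMM scaling, quasi-likelihood test with robust dispersion, 4 group means, all 15 libraries), with Benjamini-Hochberg adjustment over all tested genes and a threshold of 0.05. CPM are TMM-scaled and FPKM divide them by merged exon length. SE and 95% intervals come from the same fit. Correlations used log2 CPM with a prior count of 2. Alternatives were other scalings (RLE, upper quartile), no filter or a minimum count of 50, DESeq2 1.42.0, limma-voom (limma 3.58.1), the 2 groups compared alone, a replicate block, each library left out and WT + TAM replicate 1 and *Mtm1*-/y replicate 1 left out together. The fit was tested on simulated data. Whether replicates came from separate litters or days is not given; each library is 1 mouse by its label, and no 2 libraries of a group agreed within sampling noise. Named are all 10 members, *Mtm1*, the called genes of each repair list with the 3 largest changes, and the 5 genes most correlated with *Dysf*, *Trim72* and *Anxa2*; other named genes were added to account for their lists. The members and lists were chosen with earlier results of these data known. Motifs were searched in RefSeq promoter windows of 32851 starts.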

Additional observations from a re-analysis of the deposited data

Results flagged for a closer look

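In groups of 4 libraries the highest or lowest value was set against the rest of its group for each of the 10 genes, over 30 groups, of which chance alone would flag about 5%, and 3 values stood out. *Trim72* was 174 CPM in *Mtm1*-/y replicate 1, far below the 264 to 279 CPM of the other *Mtm1*-/y libraries. *Anxa4* in the same library was 76.7 CPM, above the 61.4 to 62.5 CPM of the others. *Anxa7* was 118 CPM in WT + TAM replicate 1, while its companions held 27.6 to 28.7 CPM. The group of 3 mice was not tested in this way. The interaction test called no member for a genotype effect that differed between treated and untreated mice.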

How the results depend on the processing

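Over all alternatives 5 to 8 members were called between *Mtm1*-/y and WT and 2 to 7 between *Mtm1*-/y + TAM and WT + TAM, against 6 in each as reported. Leaving out 1 library gave 5 to 8 members called between *Mtm1*-/y and WT, the 8 without *Mtm1*-/y replicate 1, and 2 to 7 between *Mtm1*-/y + TAM and WT + TAM, the 2 without *Mtm1*-/y + TAM replicate 2. The cause was not tested. *Anxa4* and *Anxa2* were called in every alternative of both comparisons, and *Dysf*, *Anxa7* and *Anxa11* in every one of the untreated comparison. No member was called in a tamoxifen or interaction comparison under any alternative. Over the whole table the number of genes called ran from 3682 to 5254 between *Mtm1*-/y and WT, from 1654 to 4587 between *Mtm1*-/y + TAM and WT + TAM, from 0 to 7 for tamoxifen in *Mtm1*-/y, from 11 to 347 for tamoxifen in WT, from 11 to 128 for tamoxifen averaged over genotypes and from 0 to 74 for the interaction. Equal replicate numbers were not taken to pair the mice. Over 21 same-numbered pairs the deviations from group means correlated at -0.11 to 0.31 with a median of -0.0041. Of these pairs 6 were over 0.1, and the median of the 63 other pairs was -0.013. These values cannot exclude shared litters or days, which are not given. With the replicate block 5 members were called in each genotype comparison, *Anxa1* losing its call in both, and 0 in the others.

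Of 1420 values of single members under the alternatives, 1292 kept their direction and side of the threshold, 27 lost a call, 9 gained one and 92 changed sign. None of those 92 was past the threshold in either fit. With 1 library left out, the log2 fold change ranged, between *Mtm1*-/y and WT, *Anxa5* from -0.17 to 0.18. For tamoxifen in *Mtm1*-/y, *Anxa7* from -0.13 to 0.14, *Anxa5* from -0.15 to 0.26, *Dysf* from -0.18 to 0.071, *Anxa1* from -0.039 to 0.49 and *Anxa2* from -0.19 to 0.47. For tamoxifen in WT, *Anxa1* from -0.26 to 0.21, *Trim72* from -0.077 to 0.082, *Dysf* from -0.040 to 0.070, *Anxa2* from -0.19 to 0.027, *Myof* from -0.22 to 0.42, *Anxa4* from -0.076 to 0.24 and *Anxa7* from -0.32 to 0.73. Between *Mtm1*-/y + TAM and WT + TAM, *Myof* from -0.45 to 0.19 and *Anxa5* from -0.018 to 0.39. For tamoxifen averaged over genotypes, *Dysf* from -0.075 to 0.052, *Anxa5* from -0.15 to 0.056, *Anxa11* from -0.022 to 0.072, *Myof* from -0.040 to 0.28, *Anxa7* from -0.15 to 0.38, *Anxa4* from -0.14 to 0.014, *Trim72* from -7.5e-05 to 0.12, *Anxa2* from -0.13 to 0.20 and *Anxa6* from -0.017 to 0.10. For the interaction, *Myof* from -0.29 to 0.35, *Anxa7* from -0.72 to 0.34, *Dysf* from -0.22 to 0.037, *Anxa1* from -0.082 to 0.56 and *Anxa2* from -0.12 to 0.54. With WT + TAM replicate 1 and *Mtm1*-/y replicate 1 both left out it was, between *Mtm1*-/y and WT, *Anxa5* 0.18. For tamoxifen in *Mtm1*-/y, *Anxa7* -0.0061 and *Anxa5* -0.094. For tamoxifen in WT, *Anxa1* -0.27, *Trim72* 0.082, *Dysf* -0.024, *Myof* -0.22, *Anxa4* -0.076 and *Anxa7* -0.32. Between *Mtm1*-/y + TAM and WT + TAM, *Myof* 0.19. For tamoxifen averaged over genotypes, *Myof* -0.054, *Anxa7* -0.16, *Anxa2* -0.070, *Anxa6* -0.0057 and *Anxa1* -0.11. For the interaction, *Myof* 0.33, *Anxa7* 0.32 and *Trim72* -0.059. Without the count filter it was -0.0011 for *Anxa7* for tamoxifen in *Mtm1*-/y. With the replicate block it was -0.0065 for *Anxa7* for tamoxifen in *Mtm1*-/y, 0.016 for *Dysf* for tamoxifen averaged over genotypes and 0.011 for *Anxa5* for tamoxifen averaged over genotypes. With limma-voom it was -0.094 for *Anxa1* for tamoxifen in WT, 0.012 for *Dysf* for tamoxifen averaged over genotypes and 0.086 for *Myof* for the interaction. With upper-quartile factors it was 0.00099 for *Dysf* for tamoxifen averaged over genotypes. With a minimum count of 50 it was 0.0012 for *Dysf* for tamoxifen averaged over genotypes.

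*Myof* had 75 to 270 counts a library, the lowest of the members, and the groups of 3 and 4 mice leave wide intervals for *Anxa1*, *Anxa2* and *Anxa7*.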
